A study of Mus musculus with 6 samples.

Results

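The genes described here encode carriers that move organic anions, organic cations, carnitine, peptides, bile acids, sulfate, dicarboxylates and urate across cell membranes. They were chosen by name, as the solute carrier families Slc10, Slc13, Slc15, Slc17, Slc22 and Slc47 and the organic anion transporting polypeptides, Slco. Earlier results of these data were known when the names were chosen. Such a name was borne by 67 of 23873 rows, and 62 of these were among the 19503 rows with values. The other 5, Slc17a6, Slc22a16, Slc22a20, Slco6c1 and Slco6d1, carried no value in any library.

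In the proximal tubule, the segment that follows the glomerular filter, several of these carriers work in series. Slc22 carriers on the blood side take drugs, toxins and metabolites into the cell, organic anions in exchange for dicarboxylates that Slc13a3 brings in with sodium, and carriers on the urine side such as Slc47a1 pass substrates on. Carriers of the same families on the urine side recover urate, sulfate, citrate, carnitine and small peptides from the filtrate. Several transcripts of these kinds are textbook markers of mature proximal tubule cells.

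Whole kidneys of mice 8 weeks old were compared, 3 libraries labelled wild type and 3 from mice labelled R26NICD2/+pax8cre, here NICD2_Pax8. The second genotype joins a Rosa26 allele that encodes the intracellular, ligand-independent domain of the receptor Notch2 with a Cre driver named for Pax8, a transcription factor of the renal tubule epithelium. In the title of the series the driver is Pax-rtTA instead, and library titles of the wild-type group begin with NICD, so neither the driver nor the absence of the allele from the controls is settled by the sources used here. The sex of the mice is not given. Separate animals are not stated as the source of the libraries either, and p-values therefore reflect only how these libraries vary, which may be technical. Levels are FPKM, fragment counts scaled to transcript length and to library size, so that levels of different genes can be set side by side per length.

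From the spacing of low values, 1 FPKM rested on an estimated 14.6 to 18.2 fragments in the 6 libraries for each kilobase of effective transcript length. Wild-type replicate 1 stood apart: 5 adrenal cortex markers summed to 3629 FPKM there and to at most 1.63 FPKM in the other 5 libraries, and 5 fat markers summed to 4172 FPKM against 61.7 to 861 FPKM. Transcripts of 4 Y-linked genes summed to 58.4 to 62.7 FPKM in wild type and to 55.7, 21.9 and 40.3 FPKM in NICD2_Pax8 replicates 1 to 3, so RNA of male origin was present in every library. None of the 4 was called on the deposited scale, and 3 were lower after the scaling described next. Of the 13500 genes that reached 1 FPKM in 3 or more of the libraries, limma on log2(FPKM + 1) called 2190 lower and 6095 higher in NICD2_Pax8 at an adjusted p under 0.05. Their median log2 fold change was 0.32, and it was 0.02 after median-of-ratios scaling, which divides each library by a factor for its typical gene. On the deposited scale a rise of about that median is therefore shared by the typical gene.

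Most of the transporter transcripts fell in NICD2_Pax8 kidneys, and the organic anion transporters fell farthest. Of the 62 genes 45 passed the level filter, and 31 of them (68.9%) were called lower, against 16.2% of all genes tested. Another 6 (13.3%) were called higher, against 45.1% of all genes tested, and 8 did not pass. The median log2 fold change of the 45 was -1.45, beside 0.32 for all tested genes. After scaling, 33 were lower against 25.7% of all tested genes, and 4 were higher against 28.7%. All 31 genes called lower on the deposited scale were also lower after scaling, and 4 of the 6 called higher were also higher. A fall of at least 10-fold in mean FPKM was called for 13 of the 45 (28.9%), against 1.44% of all tested genes, and such a rise for 0, against 2.98%. Of the 45, 2 genes passed the filter through the wild-type libraries alone and 2 through the NICD2_Pax8 libraries alone. With no filter all 62 entered the fit, and 32 were lower, against 12.2% of all 19503 rows, and 6 were higher, against 32.6%. All libraries of one group stood below all of the other, with no overlap, for 32 of the 45 in the direction of lower (18.8% of all tested genes) and for 9 in the direction of higher (49.9%). Among all 62 these counts were 36 (16.5% of all rows with values) and 13 (39.0%). By q in the authors' deposited table, 35 of the 62 had a value under 0.05 and a negative fold change, against 21.5% of its 19439 genes, and 5 had a positive one, against 21.3%. No member was called in opposite directions by the 2 sources, and 30 were lower and 3 higher in both. Slco1a1 was called lower here alone, and Slc10a3, Slc10a7 and Slc22a21, with q = 0.113, 0.192 and 0.0998 in the authors' deposited table, were called higher here alone.

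In sum the 62 transcripts stood at 2698, 3553 and 3690 FPKM in wild-type replicates 1 to 3 and at 460, 760.5 and 679.6 FPKM in NICD2_Pax8 replicates 1 to 3, so that 19.1% of the wild-type mean was left. In wild type 12 genes reached a mean of 100 FPKM, and in NICD2_Pax8 0 did. The losses were uneven between the roles. Organic anion transporters of family Slc22 summed to 925 ± 172 FPKM in wild type and fell to 35.4 ± 30.3 FPKM (SD, n = 3 each), or 3.82% of the wild-type mean, and the sulfate and dicarboxylate carriers of Slc13 kept 8.44%. Organic cation and carnitine carriers kept 31.0%, the peptide carriers of Slc15 86.8% and the bile acid carrier family Slc10 89.2%. In whole kidney, fewer cells of a type and less RNA per cell cannot be told apart.

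**Figure D1:**
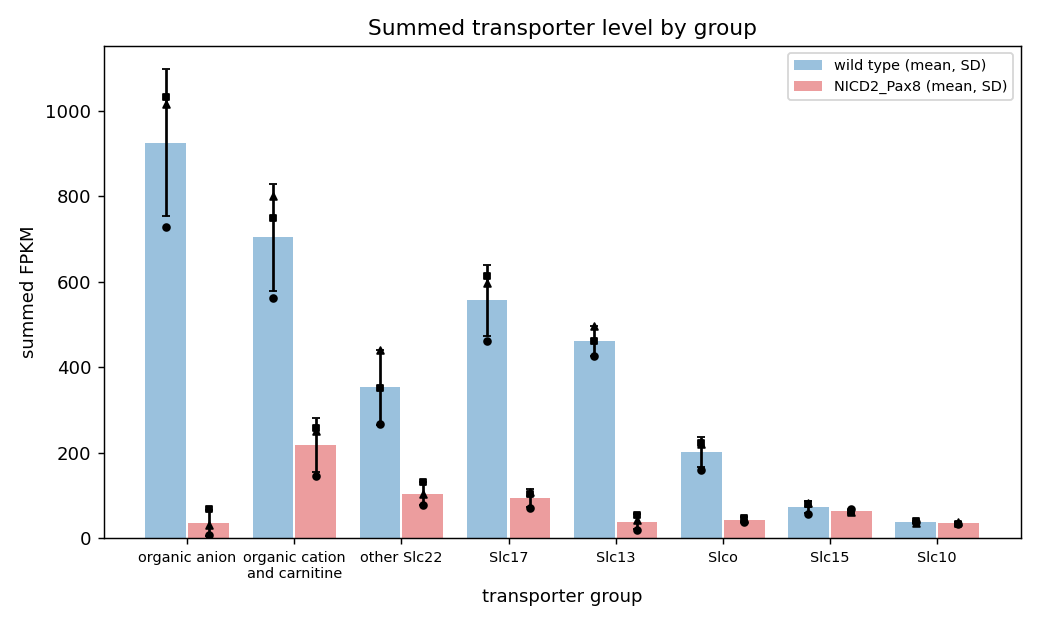
Summed FPKM (y axis, from 0) of the transporter groups (x axis) in wild type (blue) and NICD2_Pax8 (red); bars are means of 3 libraries, error bars SD, and black points single libraries. The organic anion group drops from 925 to 35.4 FPKM, while Slc15 and Slc10 keep over 80% of their level; sums of Slc15 and Slc10 overlap between the groups.

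The organic anion transporters include Slc22a6 and Slc22a8, which take up drugs and uremic toxins from the blood. Their promoters are shown with that of Slc13a3, which supplies the dicarboxylate that they export in exchange, because these 3 abundant transcripts fell together. The promoters of Slc22a28 and Slc22a30 are shown because the sequences are near copies of each other. Each runs from 250 bases before to 50 bases after the start site, 5′ to 3′, from RefSeq on GRCm38.p6, and capitals, present in 1 of the 5, mark TTCCCAC, the reverse strand of GTGGGAA, the core site of Rbpj, the DNA-binding partner of Notch.
Slc22a6, chr19:8617746-8618045, plus strand: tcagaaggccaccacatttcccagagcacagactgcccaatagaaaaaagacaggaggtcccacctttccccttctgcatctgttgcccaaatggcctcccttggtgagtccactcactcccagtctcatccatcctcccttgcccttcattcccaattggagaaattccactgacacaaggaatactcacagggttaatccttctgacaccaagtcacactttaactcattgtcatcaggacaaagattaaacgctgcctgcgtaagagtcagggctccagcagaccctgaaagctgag
Slc22a8, chr19:8592932-8593231, plus strand: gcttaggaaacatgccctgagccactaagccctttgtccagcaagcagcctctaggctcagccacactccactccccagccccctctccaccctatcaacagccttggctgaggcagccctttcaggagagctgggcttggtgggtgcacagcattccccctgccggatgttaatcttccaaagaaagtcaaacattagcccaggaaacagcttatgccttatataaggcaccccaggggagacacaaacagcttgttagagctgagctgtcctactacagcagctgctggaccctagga
Slc13a3, chr2:165473148-165473447, minus strand: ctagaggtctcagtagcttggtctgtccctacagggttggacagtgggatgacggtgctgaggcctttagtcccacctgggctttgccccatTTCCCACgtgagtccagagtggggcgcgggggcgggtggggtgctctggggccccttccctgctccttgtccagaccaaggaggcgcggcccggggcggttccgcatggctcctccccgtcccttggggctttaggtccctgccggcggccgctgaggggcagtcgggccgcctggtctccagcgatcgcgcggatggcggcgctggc
Slc22a28, chr19:8131933-8132232, minus strand: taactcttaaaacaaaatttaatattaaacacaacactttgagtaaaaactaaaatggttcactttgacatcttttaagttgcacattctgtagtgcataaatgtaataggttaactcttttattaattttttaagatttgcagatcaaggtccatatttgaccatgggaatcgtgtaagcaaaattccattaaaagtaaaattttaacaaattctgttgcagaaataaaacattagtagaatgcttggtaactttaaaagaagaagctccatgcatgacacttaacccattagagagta
Slc22a30, chr19:8405056-8405355, minus strand: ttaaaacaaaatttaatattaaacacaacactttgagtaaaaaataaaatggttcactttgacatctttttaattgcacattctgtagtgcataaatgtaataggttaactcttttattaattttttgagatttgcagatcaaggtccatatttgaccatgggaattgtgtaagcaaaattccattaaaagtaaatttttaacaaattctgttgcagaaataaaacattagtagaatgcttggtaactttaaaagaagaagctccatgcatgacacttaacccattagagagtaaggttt

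Motifs were searched on both strands in the promoters of 50 of the 62 genes, some of which have several, and a gene was counted if any of its promoters matched. GTGGGAA was found for 4 of the 50 genes (8.0%), near its share of 7.25% among 27025 genes. The 4 were Slc13a3, called lower, at -158 from the start, Slc22a17 and Slco4a1, tested but not called lower, and Slc17a2, under the level filter. CAAAGTCCA, a site of Hnf4a, matched no transporter promoter and 0.555% of all genes. The promoters of Slc22a28 and Slc22a30 were 94.1% identical in a global alignment, those of Slc22a6 and Slc22a8 48.8%. The promoters of Slc22a28 and Slc22a6 were 47.8% identical, near the share of Slc22a6 and Slc22a8.

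Slc22a6 (gene 18399, chromosome 19, 8617996 to 8628299, plus strand, GRCm38) stood at 256, 252 and 268 FPKM in wild-type replicates 1 to 3 and at 1.19, 16.5 and 5.78 FPKM in NICD2_Pax8 replicates 1 to 3. The groups did not overlap, the wild-type libraries were close together and the NICD2_Pax8 libraries differed widely. The log2 fold change was -5.35 (SE 0.67, adjusted p = 6.81e-04), and the mean fell 33.1-fold, or 74.2-fold without NICD2_Pax8 replicate 2. Slc22a8 (gene 19879), its neighbour on the same strand, stood at 174, 172 and 231 FPKM against 0.08, 11.6 and 0.27 FPKM. Its mean fell 48.3-fold with all libraries and 1099-fold without NICD2_Pax8 replicate 2, which held nearly all of what was left. Slc13a3 (gene 114644, chromosome 2, 165405295 to 165473197) stood at 306, 304 and 326 FPKM against 1.25, 17.7 and 2.72 FPKM. Its mean fell 43.2-fold (log2 fold change -5.86, SE 0.72, adjusted p = 6.1e-04), or 157-fold without NICD2_Pax8 replicate 2.

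All 11 tested organic anion transporters were called lower, each with groups that did not overlap. Non-overlap in that direction was found for 18.8% of all tested genes. Slc22a7, a carrier of anions such as glutamate and nucleotides, stood at 28.4, 111 and 90.7 FPKM in wild type and at 0, 4.26 and 0.28 FPKM in NICD2_Pax8. Its mean fell 50.8-fold, or between 33.8-fold and 549-fold when NICD2_Pax8 replicate 1 or 2 was left out. Slc22a22, a prostaglandin carrier of the mouse kidney, stood at 42.9, 68.6 and 65.3 FPKM against 0.03, 3.41 and 0.88 FPKM, a fall of 40.9-fold (130-fold without NICD2_Pax8 replicate 2). For both genes NICD2_Pax8 replicate 2 was the highest of its group and wild-type replicate 1 the lowest of its own.

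Slc22a12, Slc22a13 and Slc22a19 fell less far than Slc22a6, Slc22a8, Slc22a7 and Slc22a22. Slc22a12, the urate exchanger that reabsorbs urate, stood at 11.9, 9.76 and 12.7 FPKM in wild type and at 1.76, 2.38 and 1.32 FPKM in NICD2_Pax8 (log2 fold change -2.15, SE 0.17, adjusted p = 1.36e-04). Slc22a13, a carrier of nicotinate and urate, stood at 13.8, 62.6 and 58.6 FPKM against 1.56, 6.93 and 6.54 FPKM, a fall of 8.98-fold. Of the 50-base stretches of its longest transcript 36.0% also occur in Slc22a13b-ps, so its level is uncertain. Slc22a19, another anion exchanger, stood at 18.2, 86.9 and 45.8 FPKM against 1.34, 4.84 and 4.7 FPKM, a fall of 13.9-fold, and wild-type replicate 2 carried much of it: the fold was 8.82 when that library was left out.

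Other members of a gene cluster on chromosome 19 fell with Slc22a6 and Slc22a8. The cluster runs from Slc22a19 at 7673075 past Slc22a26, Slc22a27, Slc22a28, Slc22a29 and Slc22a30 to Slc22a8 and Slc22a6, ending at 8628299. Slc22a28 stood at 93.4, 113 and 109 FPKM in wild type and at 0.78, 7.12 and 4.85 FPKM in NICD2_Pax8, a fall of 24.7-fold (37.3-fold without NICD2_Pax8 replicate 2). Slc22a30 stood at 82.8, 146 and 129 FPKM against 0.77, 10.2 and 4.88 FPKM, a fall of 22.6-fold (42.1-fold without that library). Of the 50-base stretches of Slc22a28 53.3% also occur in Slc22a30, so the counting may have moved fragments between these genes and their separate levels are uncertain. Slc22a26 and Slc22a29, at 4.11 and 3.10 FPKM in the wild-type mean, fell to 0.437 and 0.127 FPKM. Slc22a27 stayed under the filter, at no more than 0.29 FPKM. The 7 tested genes of the cluster kept 2.07% to 10.6% of their wild-type means.

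Of the organic cation and carnitine carriers 5 of 7 tested genes were lower and 2 higher, against 16.2% and 45.1% of all tested genes. Slc22a2 (gene 20518, chromosome 17, 12584189 to 12628489), which takes up creatinine and metformin from the blood, stood at 122, 181 and 174 FPKM in wild type and at 2.6, 16.9 and 12.5 FPKM in NICD2_Pax8. The groups were far apart, and NICD2_Pax8 replicate 1 was the lowest library. The mean fell 14.9-fold (log2 fold change -4.04, SE 0.57, adjusted p = 0.00108).

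Slc47a1, the proton exchanger that releases organic cations into the urine, stood at 197, 252 and 279 FPKM in wild type and at 57.4, 93.7 and 80.1 FPKM in NICD2_Pax8, a fall of 3.15-fold (log2 fold change -1.66, SE 0.21, adjusted p = 7.27e-04). The ratio of 2 genes within a library does not depend on scaling between libraries. Relative to Slc22a2, its partner on the blood side, Slc47a1 stood at 1.39 to 1.62 in wild type and at 22.1, 5.56 and 6.39 in NICD2_Pax8. Slc47a2, next to Slc47a1 on chromosome 11, was under the filter, at no more than 0.34 FPKM. Slc22a3, a further cation carrier, was also under it. Wild-type replicate 1 held the most, 2.32 FPKM, and the other 5 libraries held 0.11 to 0.64 FPKM.

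Carnitine, the carrier of fatty acids into mitochondria, is recovered from the filtrate by Slc22a5. Slc22a5 stood at 77.6, 102 and 114 FPKM in wild type and at 23.7, 30.3 and 38.7 FPKM in NICD2_Pax8, a fall of 3.16-fold. Slc22a4, which carries ergothioneine, stood at 12.0, 18.2 and 16.7 FPKM against 1.42, 3.06 and 2.39 FPKM, a fall of 6.83-fold. Slc22a21, a carnitine carrier described in testis, which lies between both on chromosome 11, was called higher, at 1.13 ± 0.233 against 2.25 ± 0.365 FPKM (SD, n = 3 each; adjusted p = 0.0107). Of its 50-base stretches 23.8% occur in Slc22a5, and 26.9% of those of Slc22a5 in it, so its level is uncertain, and with quantile normalization it did not pass. Of 5 genes of carnitine synthesis and use, 3 were lower (16.2% of all tested genes) and 0 higher, among them Cpt2, a mitochondrial carnitine transferase, at 96.9 ± 6.83 against 34.4 ± 11.9 FPKM (SD, n = 3 each).

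**Figure D2:**
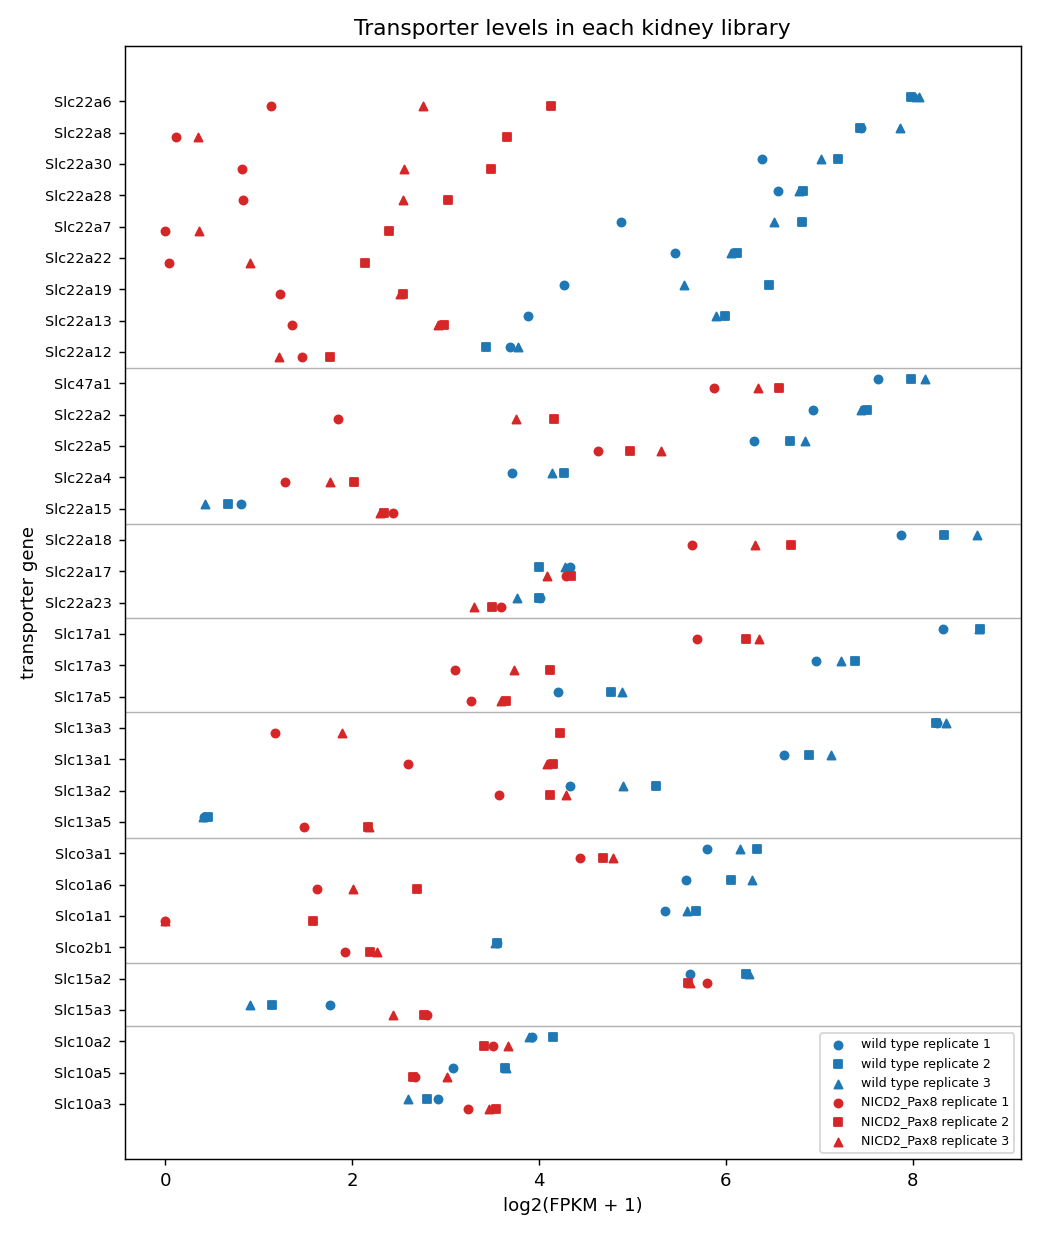
Levels as log2(FPKM + 1) (x axis) of 33 of the 34 transporters chosen by rule (y axis, grouped by role) in the 3 wild-type libraries (blue) and the 3 NICD2_Pax8 libraries (red); circles, squares and triangles are replicates 1, 2 and 3. Blue lies right of red with no overlap for most genes, except Slc22a17 and Slc15a2, whose groups overlap, and Slc22a15, Slc13a5, Slc15a3 and Slc10a3, where red lies to the right.

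The remaining 3 Slc22 genes, 2 of them lower and 0 higher against 16.2% and 45.1% of all tested genes, kept 29.6% of their summed level. Slc22a18, an imprinted gene of the family, was the most abundant Slc22 transcript by its mean in wild type, at 233, 321 and 410 FPKM, and stood at 48.7, 103 and 78.1 FPKM in NICD2_Pax8, a fall of 4.2-fold. Slc22a23, a carrier of unknown substrate, stood at 15.07, 15.02 and 12.61 FPKM against 11.1, 10.3 and 8.9 FPKM (log2 fold change -0.46, SE 0.12, adjusted p = 0.0163). It no longer passed without wild-type replicate 2 (adjusted p = 0.0617) or NICD2_Pax8 replicate 3 (adjusted p = 0.0644). Slc22a17, also described as a receptor for lipocalin 2, stood at 19.1, 14.98 and 18.4 FPKM against 18.6, 19.2 and 16.0 FPKM, with groups that overlap. On the log2 scale its change of 0.03 (SE 0.13, adjusted p = 0.829) turned to -0.30 after scaling and did not pass in either.

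Of the Slc17 carriers, Slc17a1 and Slc17a3 export urate and other anions into the tubule. Slc17a1 stood at 320, 420 and 418 FPKM in wild type and at 50.8, 73.0 and 80.7 FPKM in NICD2_Pax8 (log2 fold change -2.50, SE 0.20, adjusted p = 1.33e-04). Slc17a3 stood at 124, 166 and 149 FPKM against 7.55, 16.3 and 12.2 FPKM (log2 fold change -3.55, SE 0.26, adjusted p = 1.01e-04). The ratio of Slc17a1 to Slc17a3 lay between 2.53 and 2.80 in wild type and between 4.47 and 6.73 in NICD2_Pax8, so Slc17a3 lost more of its level in every NICD2_Pax8 library. Slc17a5, the lysosomal sialic acid exporter, fell 2.31-fold, from 17.4, 26.3 and 28.7 FPKM to 8.67, 11.5 and 11.1 FPKM. These 3 of the 4 tested genes of the family were called lower and 0 higher, against 16.2% and 45.1% of all tested genes.

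The neighbours of Slc17a1 and Slc17a3 on chromosome 13 did not share the fall. Slc17a2, which starts before Slc17a3 at 23806941, stood at 0.02, 0.03 and 0.05 FPKM in wild type and at 0.78, 0.78 and 1.08 FPKM in NICD2_Pax8. It was under the filter. A rise is given for it in the authors' deposited table, 3.73 on the log2 scale with q = 2.81e-07. Slc17a4, which lies beyond Slc17a1 from 23897879, stood at 0.33, 0.89 and 1.3 FPKM against 1.48, 1.35 and 2.05 FPKM (adjusted p = 0.0784). Among the vesicular carriers of this family, Slc17a7 and Slc17a8 reached at most 0.15 FPKM and Slc17a9, which loads nucleotides into vesicles, at most 1.10 FPKM.

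In family Slc13, 4 of 5 genes were lower and 1 was higher, where 16.2% of all tested genes were lower and 45.1% higher. Slc13a1, which recovers sulfate from the filtrate, stood at 97.5, 117 and 138 FPKM in wild type and at 5.03, 16.7 and 16.0 FPKM in NICD2_Pax8, a fall of 9.37-fold (log2 fold change -3.27, SE 0.41, adjusted p = 7.01e-04). Slc13a2, which recovers citrate on the urine side, stood at 19.1, 37.1 and 28.8 FPKM against 10.9, 16.4 and 18.5 FPKM. Its groups came close to each other, and it passed at -0.83 on the log2 scale (SE 0.28, adjusted p = 0.0359), but not without wild-type replicate 2 or 3 or NICD2_Pax8 replicate 1 or 2 (adjusted p = 0.106, 0.0916, 0.106 and 0.0656), nor with no filter (adjusted p = 0.0598). Slc13a2 over Slc13a3, the urine side over the blood side carrier of dicarboxylates, was 0.0623, 0.122 and 0.0883 in wild type and 8.7, 0.924 and 6.81 in NICD2_Pax8, with no overlap. Slc13a4, a second sulfate carrier, fell from 2.87 ± 0.517 to 0.943 ± 0.42 FPKM (SD, n = 3 each). Slc13a5, a citrate carrier best known from liver, stood at 0.33, 0.37 and 0.32 FPKM against 1.8, 3.5 and 3.53 FPKM, a rise of 8.66-fold (log2 fold change 1.52, SE 0.21, adjusted p = 9.77e-04), and was also higher after scaling.

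**Figure D3:**
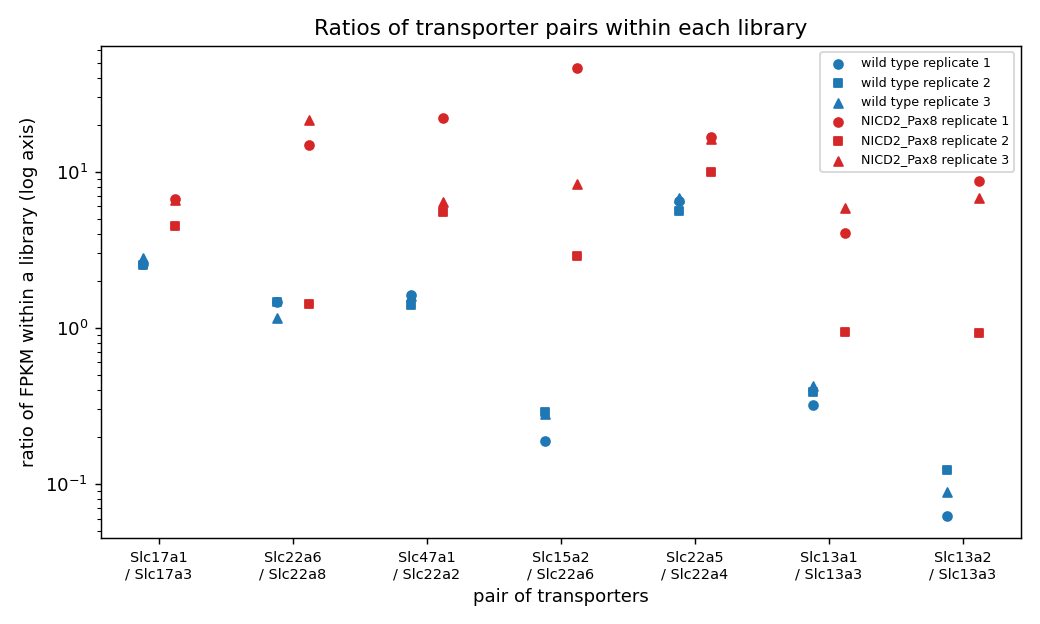
Ratio of the FPKM of 2 transporters in the same library (y axis, log scale) for 7 pairs (x axis) in wild type (blue) and NICD2_Pax8 (red); symbols are replicates 1 to 3. For 6 pairs the groups are apart, as for Slc47a1 over Slc22a2 with 1.39 to 1.62 against 5.56 to 22.1; for Slc22a6 over Slc22a8 NICD2_Pax8 replicate 2, at 1.42, lies among the wild-type libraries at 1.16 to 1.47.

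The 7 pairs in the plot of ratios were chosen with earlier results known, so their ratios are given as a description, with no test. An exact two-sided permutation test of 3 libraries against 3 cannot go below p = 0.1.

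Among the Slco carriers, which take up bile salts, steroid conjugates and hormones, 4 of 7 tested genes were lower and 0 higher (16.2% and 45.1% of all tested genes). Slco1a1, an androgen-dependent carrier of the mouse kidney, stood at 39.8, 50.3 and 46.8 FPKM in wild type and was listed at 0, 2.0 and 0 FPKM in NICD2_Pax8 (log2 fold change -5.01, SE 0.42, adjusted p = 1.59e-04). All that was left was in NICD2_Pax8 replicate 2, and the fold of 68.4 in mean FPKM was 45.6 without NICD2_Pax8 replicate 1 or 3. In the authors' deposited table its fall did not pass, with a log2 fold change of -2.33 and q = 0.125. Slco1a6 of the same cluster on chromosome 6 stood at 46.5, 65.5 and 76.8 FPKM against 2.07, 5.48 and 3.03 FPKM, a fall of 17.9-fold. Slco3a1, a carrier with wide tissue expression, stood at 54.6, 79.4 and 70.2 FPKM against 20.7, 24.7 and 26.8 FPKM, and Slco2b1, which carries steroid sulfates, at 10.7, 10.7 and 10.5 FPKM against 2.79, 3.56 and 3.81 FPKM. These broader carriers kept 35.4% and 31.8% of their wild-type means, where Slco1a1 and Slco1a6 kept 1.46% and 5.60%.

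Slco2a1, the prostaglandin transporter, stood at 6.47, 8.66 and 8.43 FPKM in wild type and at 9.12, 9.97 and 9.86 FPKM in NICD2_Pax8. Its log2 fold change of 0.28 (SE 0.13, adjusted p = 0.108) turned to -0.04 after scaling. Slco4c1, a carrier of digoxin and thyroid hormone, stood at 0.94, 4.92 and 4.46 FPKM against 0.67, 0.78 and 1.34 FPKM. It did not pass with all libraries (adjusted p = 0.0689) and was lower without wild-type replicate 1, the library with adrenal and fat transcripts, with quantile normalization and with the replicate number as a block. Slco1a4, a carrier of endothelium and liver, stayed under the filter at 0.43, 0.56 and 1.02 FPKM against 0.08, 0.11 and 0.12 FPKM. Of 6 endothelial markers 4 were lower (16.2% of all tested genes) and 0 higher, and their sum was 127 to 155 FPKM in wild type and 66.7 to 85.8 FPKM in NICD2_Pax8; their part in the values of Slco1a4 was not tested.

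The peptide carriers of Slc15 kept 86.8% of their summed level. Of 3 tested genes 0 were lower and 1 was higher, where 16.2% of all tested genes were lower and 45.1% higher. Slc15a2, which recovers small peptides and peptide-like antibiotics from the filtrate, stood at 48.2, 73.3 and 75.1 FPKM in wild type and at 54.7, 47.2 and 48.1 FPKM in NICD2_Pax8, with groups that overlap through wild-type replicate 1. The log2 fold change was -0.36 (SE 0.18, adjusted p = 0.13), and it passed as lower after scaling (-0.71, adjusted p = 0.036) and without wild-type replicate 1 (-0.56, adjusted p = 0.00401). It kept 76.3% of the wild-type mean and stood above Slc22a6 in every NICD2_Pax8 library and below it in every wild-type library: Slc15a2 over Slc22a6 was 0.188, 0.291 and 0.280 in wild type and 46.0, 2.87 and 8.32 in NICD2_Pax8. Slc15a1, the peptide carrier of the intestine, stayed at 0.11 to 0.39 FPKM in all libraries and Slc15a5 at no more than 0.09 FPKM.

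Lysosomal peptide carriers went the other way or did not pass. Slc15a3, a carrier of histidine and peptides in immune cells, stood at 2.38, 1.2 and 0.87 FPKM in wild type and at 5.97, 5.8 and 4.43 FPKM in NICD2_Pax8, a rise of 3.64-fold (log2 fold change 1.40, SE 0.24, adjusted p = 0.00235) that was also called after scaling. Of 6 macrophage markers 4 were higher, against 45.1% of all tested genes, and 0 lower, and their sum was 221, 99.6 and 72.5 FPKM in wild type and 372, 427 and 367 FPKM in NICD2_Pax8. Wild-type replicate 1 was the highest wild-type library in both Slc15a3 and this sum, and the part of macrophages in the rise was not tested. The row of Slc15a3 overlaps by 87 bases Tmem132a on the other strand, which stood at 8.44, 3.74 and 3.98 FPKM against 17.03, 16.54 and 12.85 FPKM, and whether strand was used in counting is not given in the sources used here. Slc15a4, its lysosomal relative, stood at 5.55, 6.08 and 6.08 FPKM against 6.62, 8.55 and 8.0 FPKM (log2 fold change 0.33, SE 0.12, adjusted p = 0.0509), and at 0.02 on the log2 scale after scaling. It overlaps Glt1d1 on the other strand by 1223 bases.

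The Slc10 family changed little. Slc10a2, the sodium-dependent bile acid carrier of ileum and proximal tubule, stood at 14.2, 16.7 and 13.8 FPKM in wild type and at 10.3, 9.62 and 11.7 FPKM in NICD2_Pax8 (log2 fold change -0.46, SE 0.12, adjusted p = 0.0144). Slc10a5, a carrier of unknown substrate, stood at 7.42, 11.4 and 11.6 FPKM against 5.37, 5.3 and 7.1 FPKM (log2 fold change -0.67, SE 0.19, adjusted p = 0.0214). Neither passed in every fit with a library left out. Slc10a2 missed without wild-type replicate 2 or NICD2_Pax8 replicate 2 (adjusted p = 0.0562 and 0.053), and Slc10a5 without wild-type replicate 2 or 3 or NICD2_Pax8 replicate 1 or 2 (adjusted p = 0.0735, 0.0692, 0.0652 and 0.0694). Slc10a3 and Slc10a7 were called higher on the deposited scale, at 1.66-fold and 1.53-fold, but not after scaling (adjusted p = 0.054 and 0.18). The row of Slc10a3 lies wholly within that of Gm44504 on the same strand, and 10.6% of its 50-base stretches occur in Ubl4a. Slc10a6, a carrier of steroid sulfates, stood at 2.10 ± 0.443 against 1.34 ± 0.256 FPKM (SD, n = 3 each; adjusted p = 0.0612) and passed as lower after scaling.

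The largest rise on the log2 scale among all tested members was that of Slc22a15, a carrier of zwitterions that is less studied in kidney. It stood at 0.75, 0.59 and 0.34 FPKM in wild type and at 4.4, 4.08 and 3.9 FPKM in NICD2_Pax8, a rise of 7.37-fold (log2 fold change 1.72, SE 0.14, adjusted p = 1.49e-04). The groups were far apart and the libraries of each close together. In mean FPKM Slc13a5 rose farther, 8.66-fold, and also in the authors' deposited table (log2 fold change 2.71 against 2.30 for Slc22a15). Slc22a15 and Slc13a5, the 2 genes that passed the filter through NICD2_Pax8 alone, could not be tested when a NICD2_Pax8 library was left out, because they then reached 1 FPKM in fewer than 3 libraries. The number of members called higher was then 4, 4 and 3 without NICD2_Pax8 replicates 1, 2 and 3. With all libraries it was 6, beside 45.1% of all tested genes. The 5 members with a positive fold change and q under 0.05 in the authors' deposited table were these, Slc15a3, Slc17a2 and Slco5a1. Slco5a1, under the filter, stood at 0.01, 0 and 0 FPKM against 0.1, 0.06 and 0.05 FPKM.

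**Figure D4:**
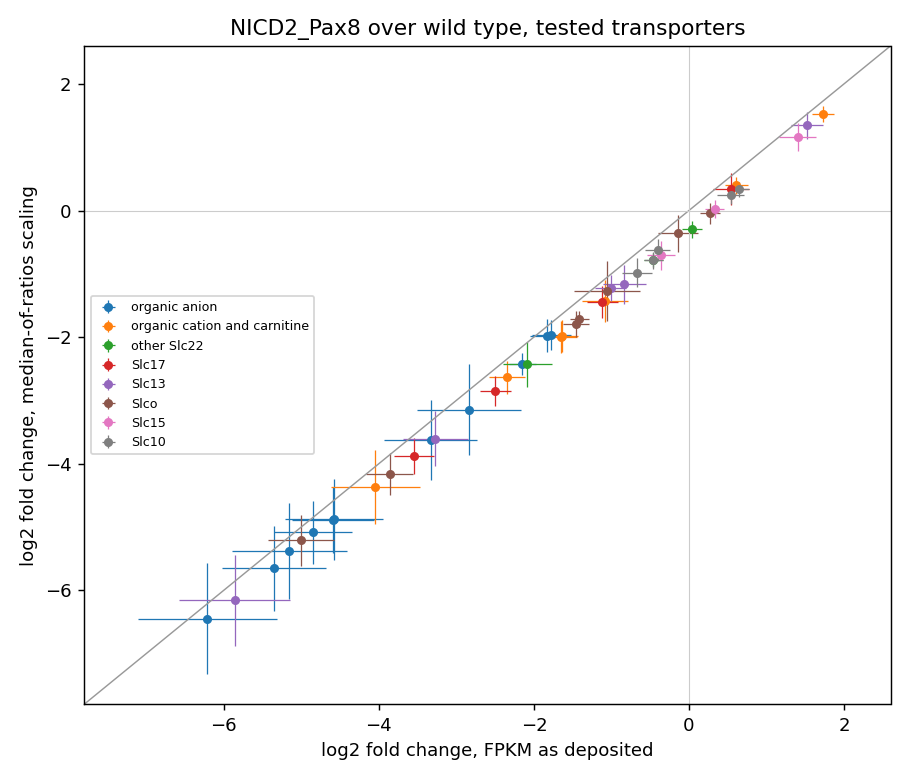
Log2 fold change of NICD2_Pax8 over wild type for the 45 tested transporters on FPKM as deposited (x axis) and after median-of-ratios scaling (y axis); bars are standard errors, colours are roles and the diagonal marks equal values. Points lie a little below the diagonal, so falls are larger and rises smaller after scaling; organic anion transporters reach -6.21 on the x axis.

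The 17 genes under the filter never exceeded 2.32 FPKM. They included Slc10a1 and Slco1b2, the bile acid carriers of the hepatocyte, at no more than 0.97 and 0.04 FPKM, and Slco1c1, the thyroid hormone carrier of brain vessels, at no more than 0.11 FPKM. Slc22a14 and Slco1a5 reached at most 0.3 and 0.1 FPKM. Slc10a4 stood at 2.21 FPKM in wild-type replicate 1 and at no more than 0.12 FPKM in each other library. Slc10a1, Slc10a6, Slc22a3, Slco1a4 and Slco4c1 were lower in the authors' deposited table and not in the fit used here.

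**Figure D5:**
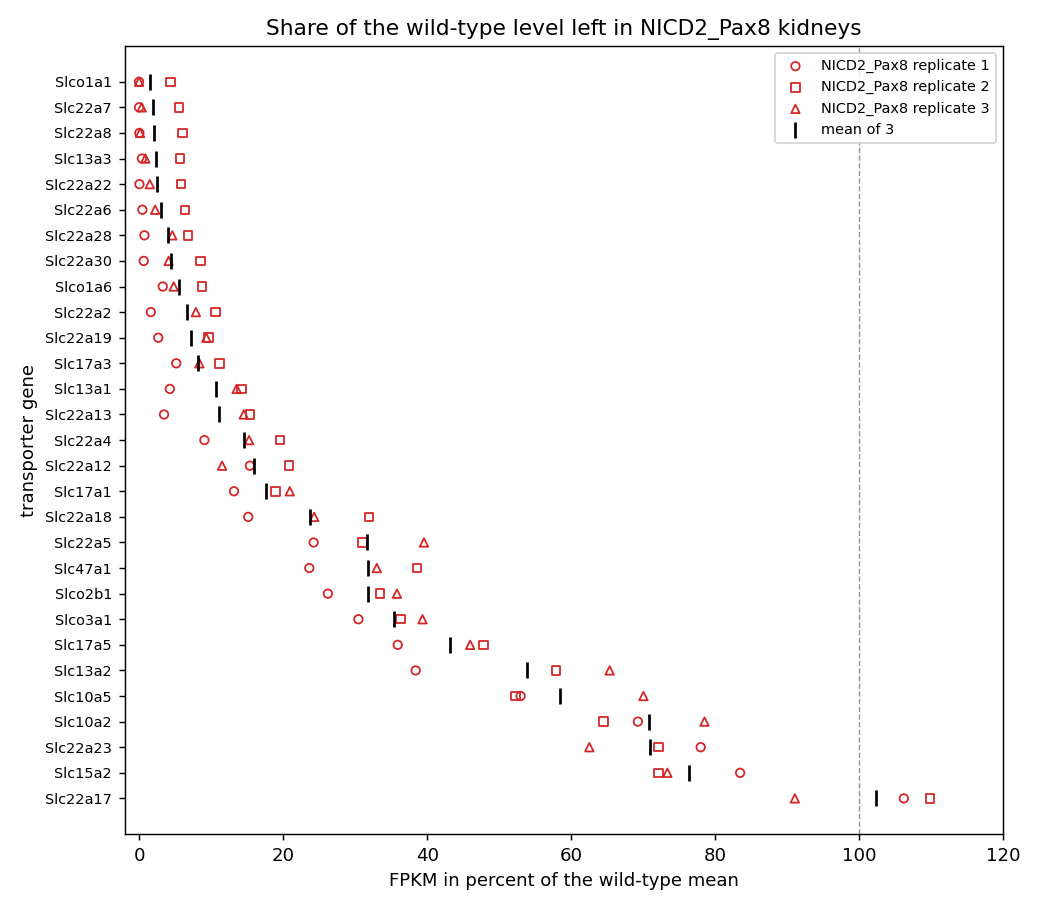
FPKM of each NICD2_Pax8 library in percent of the wild-type mean (x axis) for 29 of the 30 transporters with a wild-type mean of at least 10 FPKM (y axis, sorted); open symbols are replicates 1 to 3, the black bar is their mean and the dashed line is 100%. The mean runs from 1.46% for Slco1a1 to 102% for Slc22a17, and replicate 2 (square) lies highest for 20 genes.

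What was left in NICD2_Pax8 differed between its libraries in a regular way. Of the 30 genes with a wild-type mean of at least 10 FPKM, 12 kept under 10% of that mean, 12 kept 10% to 50% and 6 kept 50% or more. NICD2_Pax8 replicate 2 was the highest of the group for 20 of the 30, replicate 3 for 8 and replicate 1 for 2, and replicate 1 was the lowest for 24. Of the 31 members called lower, 21 were highest in replicate 2 and 27 lowest in replicate 1. Of all 2190 genes called lower, 1093 were highest in replicate 2 and 1547 lowest in replicate 1, so much of this order was shared beyond the transporters. The organic anion group summed to 7.94, 67.9 and 30.3 FPKM in replicates 1 to 3, or 0.858%, 7.34% and 3.27% of the wild-type mean. Slc22a8 was 145 times as high in replicate 2 as in replicate 1, whereas Slc47a1 was 1.63 times and Slc15a2 0.864 times as high. Without replicate 2, 28 members were lower and 4 higher. With all libraries these were 31 and 6, beside 16.2% and 45.1% of all tested genes. Ranges over all genes with 1 library left out are given in the last section.

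Other proximal tubule markers moved the same way. Of 10 such markers outside these families 9 were lower (16.2% of all tested genes) and 0 higher (45.1%), and their sum was 6166, 7884 and 8923 FPKM in wild type and 355.5, 981 and 759 FPKM in NICD2_Pax8. Among them the glucose carrier Slc5a2 kept 4.21% of its wild-type mean and the endocytic receptor Lrp2 17.2%, while the bicarbonate carrier Slc4a4 stood at 119%. Male-biased kidney genes of the mouse, Kap among them, summed to 57720, 82430 and 87930 FPKM in wild type and to 323, 4829 and 1343 FPKM in NICD2_Pax8, with 5 of 6 lower and 0 higher. Both sums were lowest in NICD2_Pax8 replicate 1 and highest in replicate 2, as for the organic anion carriers. The female-biased Prlr was lower too, at 14.7 ± 7.85 against 1.69 ± 0.94 FPKM (SD, n = 3 each), and Slc7a12 stood at 7.29 ± 4.96 against 3.48 ± 2.04 FPKM (SD, n = 3 each; adjusted p = 0.262). Kap made up most of the male-biased sum in wild type, with 55470, 79730 and 84650 FPKM, but not in NICD2_Pax8 replicate 1, with 59.9 FPKM. The part of sex or of androgen response in the falls was not tested. Of 6 markers of the distal nephron 5 were lower and 0 higher, so falls were also measured beyond the proximal tubule, while Umod, of the thick ascending limb, stood at 120% of its wild-type mean and did not pass.

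Proteins that work with these carriers were read from a list of 36 genes, of which 34 were tested; 16 were lower and 7 higher (16.2% and 45.1% of all tested genes), and after scaling 21 were lower and 4 higher (25.7% and 28.7%). Of 8 efflux pumps that pass anions and drugs out of the cell, 2 were lower and 4 higher on the deposited scale and 3 lower and 2 higher after scaling, shares near those of all tested genes. Abcc4, which exports organic anions into the urine, rose from 8.35 ± 0.699 to 16.9 ± 2.08 FPKM, and Abcc1 from 6.36 ± 1.12 to 13.5 ± 1.28 FPKM (SD, n = 3 each); both were also higher after scaling, whereas Abcb1a and Abcc3 were not. Abcg2, a urate exporter, fell from 171 ± 32.4 to 66.4 ± 4.25 FPKM (SD, n = 3 each). Abcc2 stood at 47.2 ± 9.46 against 38.4 ± 3.37 FPKM (SD, n = 3 each; adjusted p = 0.184) and passed as lower after scaling. Abcb1b stood at 70.5 FPKM in wild-type replicate 1, the library with adrenal transcripts, and at 2.98 to 13.1 FPKM elsewhere.

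Slc2a9, which returns urate to the blood, stood at 3.05, 4.34 and 4.99 FPKM in wild type and at 24.5, 22.8 and 24.1 FPKM in NICD2_Pax8, a rise of 5.77-fold (adjusted p = 8.7e-05), with groups far apart. It rose where the urate carriers Slc22a12, Slc17a1, Slc17a3 and Abcg2 fell. The scaffolds that anchor carriers at the brush border differed: Pdzk1 fell from 506 ± 97.6 to 136 ± 40.4 FPKM, and Slc9a3r1 rose from 133 ± 33.0 to 334.5 ± 55.3 FPKM (SD, n = 3 each). Of 8 brush border peptidases, whose products Slc15a2 takes up, 7 were lower (16.2% of all tested genes) and 0 higher, with Dpep1, a dipeptidase, down 14.9-fold and Enpep not passing, at 0.21 on the log2 scale (adjusted p = 0.271).

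Among transcription factors known to drive carrier genes, Hnf4a stood at 153, 192 and 209 FPKM in wild type and at 69.0, 131 and 169 FPKM in NICD2_Pax8 (adjusted p = 0.113) and passed as lower after scaling. Nr1h4, the bile acid receptor, fell 2.9-fold and Ppara, a regulator of fatty acid use, 1.96-fold.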

How the data were processed

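RNA of 6 kidney libraries (TruSeq, per the labels' protocols) was read from 1 deposited table. Per the file headers the authors gave FPKM for each library and their mean for each group. The authors' log2 fold changes, p-values and q-values of the group comparison are deposited too, the q-values labelled DESeq2 per the file headers. Other columns per the file headers hold gene positions and lengths. Further columns compare single libraries, each wild-type library with the NICD2_Pax8 library of the same replicate number, and were not used here. Bowtie 0.12.2 and mm8 appear in the submitters' processing notes, but start and end equal those of GRCm38 in RefSeq for 19406 of 22002 matched genes (88.2%) and 54 of the 62 members, so positions are read as GRCm38. How fragments were counted is not given in the sources used here. Columns of further single libraries numbered 0.

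Rows without values (4370) were left out. limma 3.58.1 with a mean-variance trend (R 4.3.3) was fitted to log2(FPKM + 1) of genes at 1 FPKM or more in 3 of 6 libraries, genotype as the only term, two-sided, Benjamini-Hochberg over all 13500 genes, called under 0.05. The fit was tested on simulated data. Errors on FPKM are SD, standard errors are limma's, folds are ratios of mean FPKM, and log2 fold changes are on the log2(FPKM + 1) scale, which understates changes of low genes. Fragments per FPKM were estimated on single-transcript genes 500 to 1500 bases long, where 72.6% to 79.0% of low values came within 0.15 of whole fragments. Members, lists and pairs were chosen with earlier results of these data known. Named by rule were members with a group mean of at least 10 FPKM and, per family, the called members with the largest rise and fall; others were named after their values were seen, and some genes are not reported here. Shared 50-base stretches were counted in GENCODE M21 transcripts; the read length is not given. Alternatives were other pseudocounts, filters, scalings and thresholds, the replicate number as a block, and each library left out. Same-numbered libraries of both groups did not deviate together (correlations of 0.095, -0.05 and 0.006), so the numbers were not taken as pairs.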

Additional observations from a re-analysis of the deposited data

How the results depend on the processing

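The numbers of lower and of higher transporters both moved with the setting. Most named members called lower kept that call in all 16 alternatives, but Slc13a2 lost it in 7. Among those called higher, Slc15a3 kept its call in all 16, and Slc13a5 and Slc22a15 in the 12 that tested them, but Slc10a3 lost it in 5. Against 31 lower and 6 higher members, the counts were 31 and 6 with a pseudocount of 0.1, 31 and 7 with 5, 33 and 4 with median-of-ratios scaling, 33 and 3 with quantile normalization, 26 and 4 at an adjusted p of 0.01, and 27 and 3 with a minimum change of 1 on the log2 scale in either direction. Leaving out 1 library gave 24 to 32 lower and 3 to 6 higher. With the replicate number as a block 32 were lower and 6 higher, and 5818 of all genes were higher and 2164 lower. No member named by rule changed its call with the block, and the member added as lower was Slco4c1. Replicate 1 of each group correlated best with its own number, replicates 2 and 3 did not. Scaling without wild-type replicate 1 gave 33 and 3, and scaling without NICD2_Pax8 replicate 2, added after the data were seen, 32 and 1, which was Slc15a3.

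Over all genes, 3473 were lower and 3873 higher with scaling (2190 and 6095 without), 3558 and 3866 with quantile normalization, 3600 and 4105 with scaling without wild-type replicate 1, 2912 and 2724 with scaling without NICD2_Pax8 replicate 2, and 1009 and 2427 with the minimum change. Leaving out 1 library gave 1625 to 2062 lower and 4604 to 6644 higher. Of the partner genes, 4 instead of 7 were higher with scaling, also without wild-type replicate 1, 3 with scaling without NICD2_Pax8 replicate 2, and 2 with the minimum change. Slc22a17 (0.03) reversed to -0.30 with scaling, -0.31 with quantile normalization, -0.30 and -0.36 with scaling without wild-type replicate 1 and NICD2_Pax8 replicate 2, and ranged from -0.068 to 0.112 when 1 library was left out, below 0 without replicate 2 of either group. The cause of these changes was not tested. At this depth members under 1 FPKM rest on few fragments, and their folds are imprecise.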
